A study of Mus musculus with 12 samples.

Results

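Ribosome biogenesis genes were followed in cultured neural stem cells (NSCs) of the adult mouse dentate gyrus (DG), a niche of the hippocampus that goes on making neurons in adult life. The 31 genes described were taken by name from the 50600 entries of the normalized counts table: nucleolar genes for the transcription and processing of ribosomal RNA and for the assembly of the ribosomal subunits. All 31 were found, and all 31 passed the filter of a mean of at least 10 normalized counts over the 12 libraries, as did 14266 genes in all. The genes fall into 5 roles: RNA polymerase I (3 genes), nucleolar proteins of several functions (5), proteins of the small nucleolar ribonucleoproteins, or snoRNPs (5), assembly of the small ribosomal subunit (9) and assembly of the large subunit (9).

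The NSCs were adherent lines from C57BL/6J mice aged 6 weeks, each line grown from the pooled tissue of 4 animals of one sex, with epidermal growth factor and basic fibroblast growth factor in the medium. Which line the libraries came from is not given in the sources used here. At passage 4, 75000 cells per well were exposed to TFB-TBOA (1 µM) or its vehicle for 15 min, then to glutamate (100 µM) or its vehicle for 48 h. TFB-TBOA blocks the transporters that carry glutamate into cells (panEAAT inhibitor). The 4 groups of 3 wells were Veh-Veh (neither agent), Veh-Glut (glutamate alone), TFBTBOA-Veh (inhibitor alone) and TFBTBOA-Glut (both), and RNA from each well gave 1 bulk RNA-seq library. The replicates are wells of a culture, so the p-values measure the spread between wells, which may be technical. The comparisons ask what glutamate changed with its transporters free or blocked, and what blocking them changed with or without added glutamate.

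A ribosome is built in the nucleolus, where RNA polymerase I transcribes the long precursor of the ribosomal RNAs. Guided by small nucleolar RNAs, snoRNPs modify and help cut this precursor, while a large set of factors folds it, trims it and loads the ribosomal proteins onto the small and large subunit precursors. Growing and dividing cells express these genes strongly, and many of them are known targets of the transcription factor MYC. In neural stem cells, leaving quiescence goes along with a rise in ribosome production.

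The libraries held 13064545 to 18372691 reads as recovered from the normalized counts, and 19133 to 21496 entries above 0. The libraries carried the NSC markers Nes, Vim, Fabp7 and Slc1a3 at 17658 to 33235 normalized counts, while Sox2 was at 121 to 273 and Gfap at 23.0 to 88.5. Map2, listed as a neuronal marker, was at 10556 to 13048, Prox1 was at 264 to 518, and Syt1, Rbfox3, Snap25, Neurod1, Dcx and Stmn2 reached at most 75.7, 52.5, 45.1, 20.0, 17.0 and 6.32. Of the microglial markers, Cx3cr1 was at 0 in all 12 libraries and Aif1, Tmem119 and Csf1r were at 9.98 or below, with P2ry12 at 11.8 to 51.6. The oligodendrocyte markers Mog, Mag and Sox10 were at 12.1 or below, and the endothelial markers Cldn5 and Cdh5 at 1.15 or below, with Pecam1 at up to 25.2 and Kdr at up to 33.7.

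Per kilobase of exon, the members spanned a wide range of levels. Npm1 (nucleophosmin) led with a mean of 4154 normalized counts per kilobase over the 12 libraries, followed by Ncl (nucleolin) at 1606, Nop56 at 1314 and Nop2 at 1032. The lowest levels per kilobase were those of Wdr12 and Utp20, both at 102, Polr1a at 132 and Rrp1b at 148. These lengths are the union of all annotated exons (GENCODE M21, GRCm38), and a gene with long, little used exons is set too low on this scale. Without length correction, the mean normalized count ran from 710.2 for Lyar to 16360.3 for Ncl, and the lowest value of any member in any library was 522, for Lyar.

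The members were lower in cells given the inhibitor. Summed over the 31 genes, the normalized count was 85004 to 86981 in Veh-Veh and 89960 to 90965 in Veh-Glut, against 74615 to 77728 in TFBTBOA-Veh and 77012 to 77562 in TFBTBOA-Glut. The 6 libraries with the inhibitor thus lay below the 6 without it, and the members took 0.493% to 0.522% of a library's normalized counts with the inhibitor and 0.567% to 0.599% without it. Fewer cells of a type and less RNA per cell cannot be told apart in such bulk samples.

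**Figure D1:**
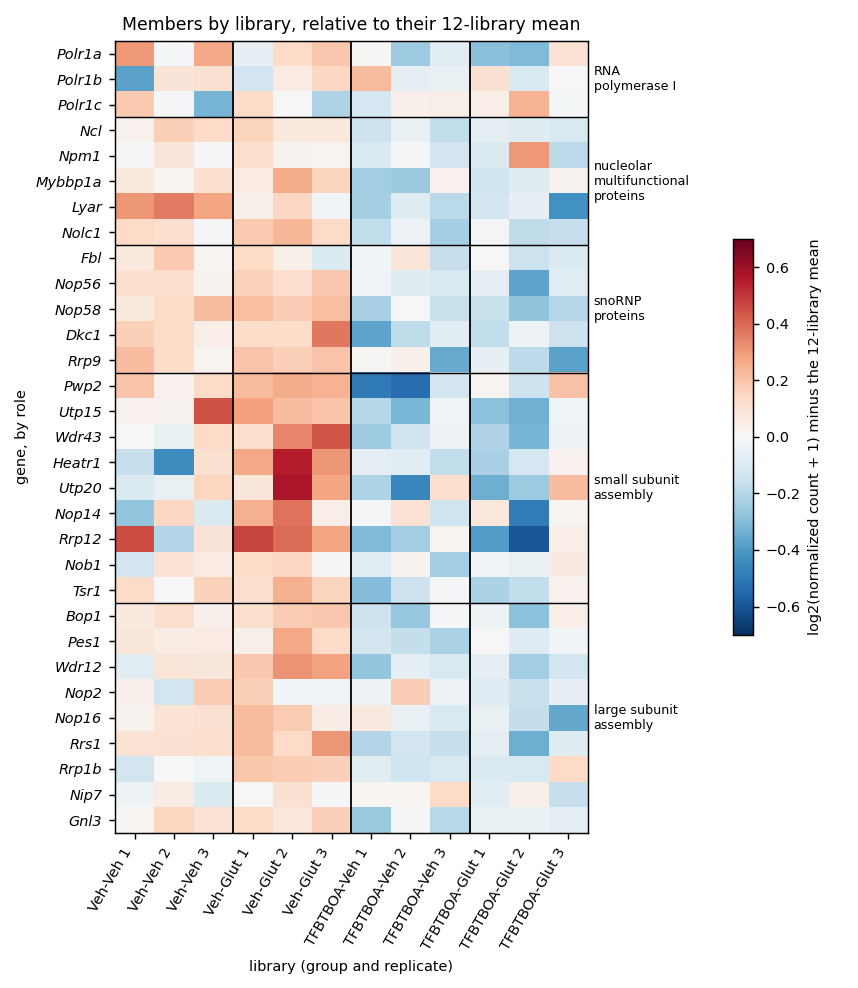
Heat map of the 31 members (rows, grouped by role) in the 12 libraries (columns, by group and replicate). Colour gives log2(normalized count + 1) minus the gene's mean over the 12 libraries. Most rows are red in the 6 libraries without the inhibitor and blue in the 6 with it. The small subunit rows have their highest group mean in Veh-Glut, although Utp15 is deepest red in Veh-Veh replicate 3.

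The effect of the inhibitor was first averaged over both glutamate conditions in a fit over all 12 libraries. A gene can pass on this average without passing in each condition. In this fit 18 of the 31 members were lower and 0 were higher at an adjusted p under 0.05 (limma, Benjamini-Hochberg over all genes), where 3.4% of all 14266 genes were lower. The median log2 fold change of the members was -0.234, against 0.0037 over all genes tested, and 29 of 31 were below 0. For 9 members the 6 inhibitor libraries all lay below the 6 others, which held for 1.73% of all genes. The members called lower were 4 of 5 nucleolar proteins, 4 of 5 snoRNP proteins, 5 of 9 small subunit factors, 5 of 9 large subunit factors and 0 of 3 RNA polymerase I subunits. edgeR's quasi-likelihood test on the recovered reads also called 18 members lower and DESeq2 called 20, against 3.23% and 5.27% of all genes. Without Veh-Veh replicate 1 the count was 11, and leaving out any other library gave between 12 and 18. The calls of Rrp9, Mybbp1a, Tsr1, Bop1 and Gnl3 held in 6, 5, 4, 3 and 1 of these 12 fits. At an unadjusted p under 0.05 there were 22 members, against 21.3% of all genes in either direction.

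**Figure D2:**
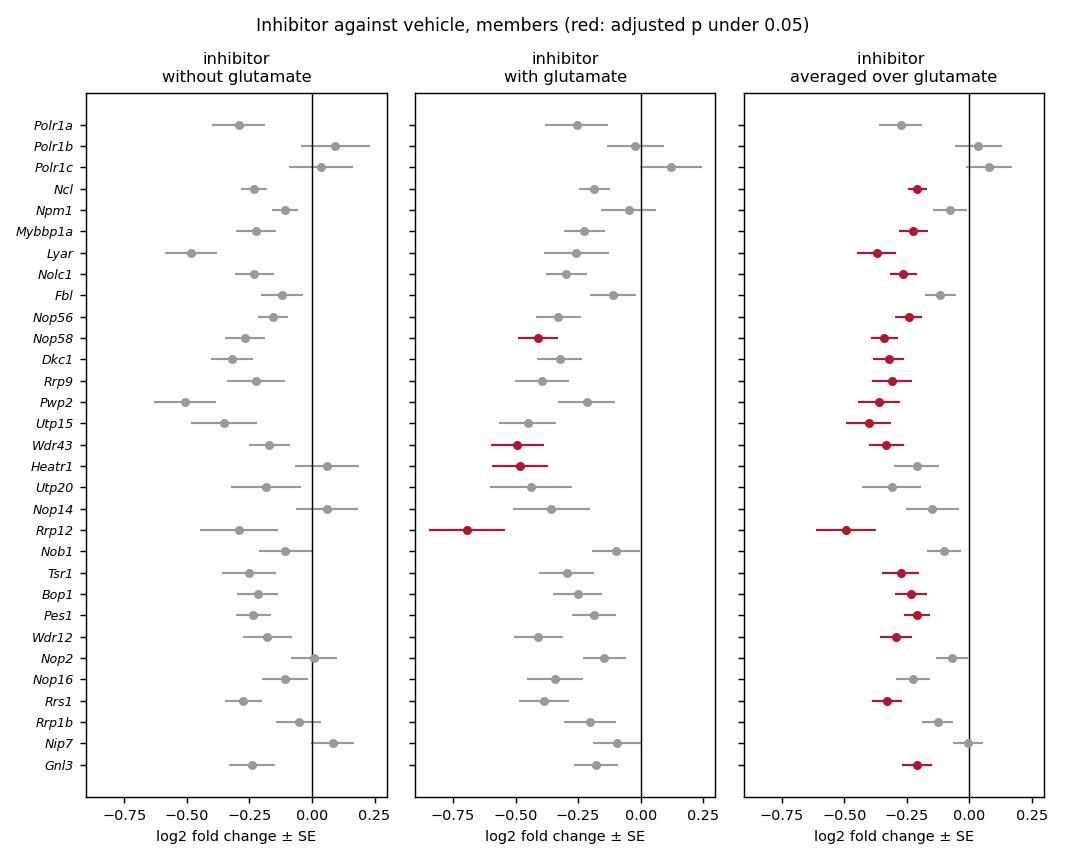
Log2 fold change of each member for the inhibitor against vehicle without glutamate, with glutamate, and averaged over both, with bars of 1 SE. Red points passed an adjusted p of 0.05: 0 members in the left panel, 4 in the middle and 18 on the right, all to the left of the line at 0.

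The box C/D snoRNP proteins, which carry the ribose methylation machinery of ribosomal RNA, held the member of smallest p. Nop58, a core protein of these particles, had normalized counts of 3133, 3274 and 3481 in Veh-Veh, 3453, 3367 and 3451 in Veh-Glut, 2547, 2988 and 2680.3 in TFBTBOA-Veh, and 2675, 2453 and 2601 in TFBTBOA-Glut. The inhibitor libraries reached 2988 at most and the others began at 3133, so the groups did not overlap (log2 fold change -0.34 ± 0.05 (SE), adjusted p = 0.00105, limma). Its partner Nop56 ranged from 4146 to 5272 (median 5068) in the 6 libraries with the inhibitor and from 5451 to 6114 (median 5819) in the 6 without it, again with no overlap (log2 fold change -0.24 ± 0.05 (SE), adjusted p = 0.0113). Fbl (fibrillarin, the methyltransferase itself) ranged from 2239 to 2658 (median 2402) in the 6 libraries with the inhibitor and from 2345 to 2841 (median 2596) in the 6 without it. Its groups overlapped and it did not pass (log2 fold change -0.12 ± 0.06 (SE), adjusted p = 0.293).

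Dkc1 (dyskerin, the pseudouridine synthase of the box H/ACA snoRNPs) had normalized counts of 3296, 3209 and 3038 in Veh-Veh, 3212, 3213 and 3787 in Veh-Glut, 2276, 2593 and 2794 in TFBTBOA-Veh, and 2611, 2868 and 2659 in TFBTBOA-Glut. The highest inhibitor library, at 2868, was below the lowest of the others, at 3038 (log2 fold change -0.32 ± 0.06 (SE), adjusted p = 0.00481, limma). Rrp9, a protein of the snoRNP that helps cut the precursor of the small subunit RNA, ranged from 908 to 1206 (median 1086) in the 6 libraries with the inhibitor and from 1194 to 1369 (median 1337) in the 6 without it. It was called lower (log2 fold change -0.31 ± 0.08 (SE), adjusted p = 0.0272), although its groups overlapped: 1206 in TFBTBOA-Veh replicate 2 was above 1194 in Veh-Veh replicate 3.

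Among the nucleolar proteins of several functions, 4 of 5 were lower. Ncl, the most highly counted member, binds the ribosomal RNA precursor and had normalized counts of 16625, 18288 and 17916 in Veh-Veh, 18196, 17108 and 17138 in Veh-Glut, 14723, 15762 and 14453 in TFBTBOA-Veh, and 15619.9, 15364 and 15130.4 in TFBTBOA-Glut. With 15762 as the highest value with the inhibitor and 16625 as the lowest without it, the groups did not overlap (log2 fold change -0.21 ± 0.04 (SE), adjusted p = 0.00306, limma). The drop was modest in size, to 0.865 times the level without the inhibitor, but the libraries of a group differed little. Npm1, a histone and ribosomal protein chaperone, ranged from 9702 to 13634 (median 10273) in the 6 libraries with the inhibitor and from 10968 to 11970.1 (median 11195) in the 6 without it and did not pass (log2 fold change -0.08 ± 0.07 (SE), adjusted p = 0.551). The highest of its 12 values came from TFBTBOA-Glut replicate 2, at 13634 normalized counts. That library also stood highest for ribosomal protein genes, and without it Npm1 passed the test (log2 fold change -0.15 ± 0.04 (SE), adjusted p = 0.033).

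Lyar, a zinc finger protein of the nucleolus that takes part in ribosomal RNA processing, had normalized counts of 869.8, 902 and 849 in Veh-Veh, 719.8, 775 and 692 in Veh-Glut, 598, 662 and 616 in TFBTBOA-Veh, and 642, 675 and 522 in TFBTBOA-Glut. Each inhibitor library was lower than each library without it (log2 fold change -0.37 ± 0.08 (SE), adjusted p = 0.00881, limma), and Veh-Veh was above Veh-Glut with no overlap, a pattern unlike that of most members. Nolc1, a phosphoprotein that accompanies snoRNPs of both classes, had 3412, 3352 and 3067 in Veh-Veh, 3509, 3629.7 and 3394 in Veh-Glut, 2742, 3008 and 2630.0 in TFBTBOA-Veh, and 3070.2, 2736 and 2770.5 in TFBTBOA-Glut. Only 3067 in Veh-Veh replicate 3 and 3070.2 in TFBTBOA-Glut replicate 1 crossed over (log2 fold change -0.26 ± 0.05 (SE), adjusted p = 0.00671). Mybbp1a, which binds MYB proteins and sits in the nucleolus, ranged from 4385 to 5369.6 (median 4853) in the 6 libraries with the inhibitor and from 5329.6 to 6280.1 (median 5587) in the 6 without it and was called lower (log2 fold change -0.22 ± 0.06 (SE), adjusted p = 0.0267). It shares 131 exon bases with the opposite-strand gene Spns2, which had a mean of 10.4 normalized counts.

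Of the small subunit factors 5 of 9 were called lower. Rrp12, which in yeast takes part in maturation and export of the subunit precursors, had normalized counts of 1236, 780.5 and 960.0 in Veh-Veh, 1249, 1182 and 1092 in Veh-Glut, 726, 759.6 and 913 in TFBTBOA-Veh, and 686, 594 and 929.6 in TFBTBOA-Glut. It fell to 0.71 times the level without the inhibitor (log2 fold change -0.49 ± 0.12 (SE), adjusted p = 0.0198, limma), with Veh-Veh replicate 2 inside the range of the inhibitor libraries. Rrp12 missed the threshold without Veh-Veh replicate 1, TFBTBOA-Veh replicate 1 or TFBTBOA-Glut replicate 2 (adjusted p up to 0.0559). Utp15, a part of the complex that binds the precursor first and links processing to transcription, had 944, 941 and 1262 in Veh-Veh, 1130.3, 1076 and 1062 in Veh-Glut, 804, 739.7 and 907 in TFBTBOA-Veh, and 757, 733 and 908 in TFBTBOA-Glut. Its highest inhibitor library, at 908, lay below the lowest of the others, at 941 (log2 fold change -0.40 ± 0.09 (SE), adjusted p = 0.0119). Wdr43, a subunit of the same complex, had 2699, 2622 and 2976 in Veh-Veh, 2940.2, 3426 and 3672 in Veh-Glut, 2279, 2456 and 2638 in TFBTBOA-Veh, and 2339, 2156 and 2626 in TFBTBOA-Glut. The groups met between 2622 and 2638 and were otherwise apart (log2 fold change -0.33 ± 0.07 (SE), adjusted p = 0.00776).

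Pwp2, a scaffold of the small subunit processome, had normalized counts of 1039.5, 927 and 994 in Veh-Veh, 1056, 1086 and 1074 in Veh-Glut, 643, 626 and 825 in TFBTBOA-Veh, and 918, 819 and 1045 in TFBTBOA-Glut. TFBTBOA-Veh was lowest on average, TFBTBOA-Glut overlapped it and Veh-Veh, and Veh-Glut was highest (log2 fold change -0.36 ± 0.08 (SE), adjusted p = 0.0147 for the average, limma). Tsr1, which acts late on the small subunit precursor, ranged from 776 to 981 (median 858) in the 6 libraries with the inhibitor and from 962 to 1141 (median 1060.1) in the 6 without it and was called lower (log2 fold change -0.27 ± 0.07 (SE), adjusted p = 0.0337). Of its exon bases 32.3% are shared with Srr, a gene on the opposite strand with a mean of 451 normalized counts, and the kit used leaves strand unmarked, so its value is uncertain. The processome proteins Heatr1, Utp20 and Nop14 and the endonuclease Nob1, which makes the last cut of the small subunit RNA, did not pass on average, with log2 fold changes of -0.21, -0.31, -0.15 and -0.10.

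Large subunit assembly held Rrs1, which in yeast helps bring the smallest ribosomal RNA into the subunit. Its normalized counts were 2177, 2187 and 2202 in Veh-Veh, 2369, 2229 and 2514 in Veh-Glut, 1759, 1855 and 1814 in TFBTBOA-Veh, and 1939, 1603 and 1914 in TFBTBOA-Glut, with 1939 as the highest value with the inhibitor and 2177 as the lowest without it (log2 fold change -0.33 ± 0.06 (SE), adjusted p = 0.00294, limma). Pes1, Bop1 and Wdr12 form a complex needed for processing of the large subunit RNAs, and all 3 were called lower. With 1 library left out, Wdr12 kept its call in all 12 fits, Pes1 in 9 and Bop1 in 3. Wdr12 had 1151, 1284 and 1276 in Veh-Veh, 1381, 1506 and 1469 in Veh-Glut, 1004, 1156 and 1122 in TFBTBOA-Veh, and 1155, 1019.9 and 1106 in TFBTBOA-Glut, so that only TFBTBOA-Veh replicate 2 and TFBTBOA-Glut replicate 1 reached above the lowest Veh-Veh library (log2 fold change -0.29 ± 0.06 (SE), adjusted p = 0.0109). Pes1 had 2584, 2535 and 2546 in Veh-Veh, 2519, 2956 and 2687 in Veh-Glut, 2238, 2184 and 2097 in TFBTBOA-Veh, and 2439.7, 2300.3 and 2414 in TFBTBOA-Glut. Its groups did not overlap (log2 fold change -0.21 ± 0.05 (SE), adjusted p = 0.0212). Bop1 ranged from 2160.3 to 2719.6 (median 2469) in the 6 libraries with the inhibitor and from 2703 to 3005 (median 2856) in the 6 without it and overlapped at the edge (log2 fold change -0.23 ± 0.06 (SE), adjusted p = 0.0347).

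Gnl3 (nucleostemin, a nucleolar GTPase named for its abundance in stem cells) ranged from 1339 to 1596 (median 1538) in the 6 libraries with the inhibitor and from 1616 to 1799.6 (median 1734) in the 6 without it. The groups did not overlap, yet it was the member called with the largest adjusted p (log2 fold change -0.21 ± 0.06 (SE), adjusted p = 0.041, limma) and kept its call in 8 of 20 alternatives. Nop16 had 1110.1, 1166 and 1174 in Veh-Veh, 1271, 1231 and 1129.6 in Veh-Glut, 1138, 1053 and 1014 in TFBTBOA-Veh, and 1050.4, 971 and 849 in TFBTBOA-Glut and came close to the threshold (log2 fold change -0.23 ± 0.07 (SE), adjusted p = 0.0594). Nip7, a further assembly factor, had 1437, 1527 and 1379.9 in Veh-Veh, 1476, 1587 and 1457 in Veh-Glut, 1489, 1488 and 1623 in TFBTBOA-Veh, and 1401, 1514 and 1318 in TFBTBOA-Glut. Its groups overlapped and it did not pass (log2 fold change -0.01 ± 0.06 (SE), adjusted p = 0.971), nor did Nop2, a methyltransferase of the large subunit RNA (log2 fold change -0.07 ± 0.06 (SE), adjusted p = 0.589). Rrp1b gave -0.13 ± 0.06 (SE) on the log2 scale and did not pass.

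Of the RNA polymerase I subunits, 0 of 3 passed in the main fit. Polr1a, the largest subunit, had normalized counts of 1919, 1543 and 1872 in Veh-Veh, 1496, 1709 and 1776 in Veh-Glut, 1566, 1306 and 1472 in TFBTBOA-Veh, and 1270.1, 1256 and 1669 in TFBTBOA-Glut. The inhibitor groups were lower on average but overlapped the others. The difference missed the threshold in the main fit (log2 fold change -0.27 ± 0.09 (SE), adjusted p = 0.0692, limma). Polr1a did pass in DESeq2 (adjusted p = 0.0295) and with a block for the replicate number (limma, adjusted p = 0.0338). Polr1b, the second-largest subunit, had 781, 1075 and 1090.5 in Veh-Veh, 921, 1053 and 1118 in Veh-Glut, 1177, 967 and 977 in TFBTBOA-Veh, and 1089, 941 and 1012 in TFBTBOA-Glut, and Polr1c, which RNA polymerase III also uses, had 1099.6, 958 and 774 in Veh-Veh, 1061, 971 and 834 in Veh-Glut, 888, 993 and 998 in TFBTBOA-Veh, and 1001, 1148 and 961 in TFBTBOA-Glut. Neither differed beyond the spread between wells, with log2 fold changes of 0.04 ± 0.09 and 0.08 ± 0.09 (SE). The value of Polr1b was below 0 when replicate 1 of Veh-Veh, of Veh-Glut or of TFBTBOA-Veh was left out.

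**Figure D3:**
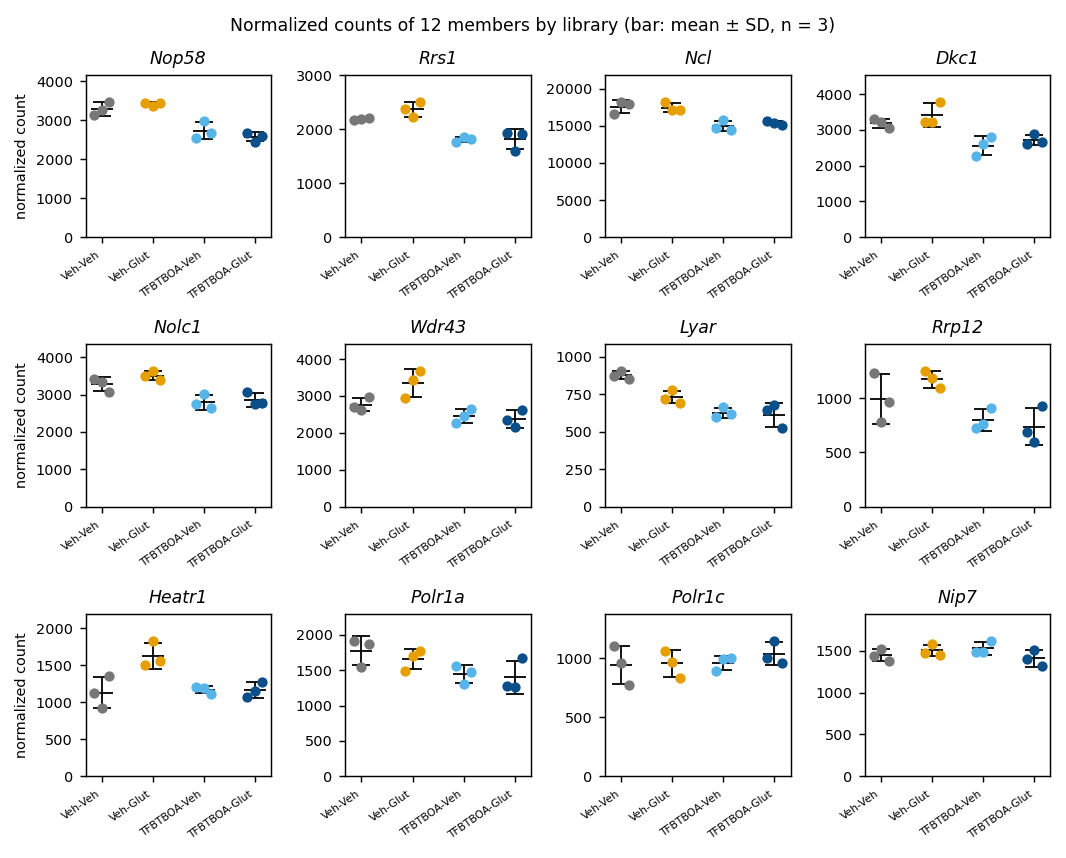
Normalized counts of 12 members in each library, with the mean and SD of each group of 3 (axes start at 0). Nop58, Rrs1, Ncl, Dkc1 and Lyar show no overlap between the 6 libraries with TFB-TBOA and the 6 without it. Heatr1 is highest in Veh-Glut, and the groups of Polr1c and Nip7 overlap.

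The inhibitor effect was then taken separately with and without added glutamate. With glutamate present (TFBTBOA-Glut against Veh-Glut), 4 members were lower, where 0.953% of all genes were lower, and 30 of 31 were below 0 with a median log2 fold change of -0.257. They were Nop58 (log2 fold change -0.41 ± 0.08 (SE), adjusted p = 0.0218, limma), Wdr43 (log2 fold change -0.49 ± 0.11 (SE), adjusted p = 0.0374), Rrp12 (log2 fold change -0.70 ± 0.15 (SE), adjusted p = 0.0406) and Heatr1 (log2 fold change -0.48 ± 0.11 (SE), adjusted p = 0.0499). For 22 of 31 members every TFBTBOA-Glut library lay below every Veh-Glut library, as it did for 12% of all genes. Polr1c had the one positive value, 0.12 ± 0.12 (SE). At an unadjusted p under 0.05 there were 18 members, against 18.3% of all genes in either direction. edgeR called 3 members lower, against 0.862% of all genes, and DESeq2 called 11, against 3.04%. Without TFBTBOA-Glut replicate 3 there were 6 calls and without Veh-Glut replicate 1 there were 3, while 0 members passed without Veh-Glut replicate 2, Veh-Glut replicate 3, TFBTBOA-Glut replicate 1 or TFBTBOA-Glut replicate 2.

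Without glutamate (TFBTBOA-Veh against Veh-Veh), 0 members passed in limma, where 0.105% of all genes were lower. At an unadjusted p under 0.05 there were 15, against 11.4% of all genes in either direction. edgeR called 0 members lower, against 0.112% of all genes, and DESeq2 called 5, against 0.505%. The median log2 fold change was -0.217, with 25 of 31 below 0, and for 14 members every TFBTBOA-Veh library lay below every Veh-Veh library, as it did for 7.74% of all genes. Pwp2 (log2 fold change -0.51 ± 0.12 (SE), adjusted p = 0.0884) and Lyar (log2 fold change -0.48 ± 0.10 (SE), adjusted p = 0.0507) had the lowest values, and Polr1b (0.09 ± 0.14, SE) and Nip7 (0.08 ± 0.09, SE) the highest. Ncl, with a small spread between wells, had log2 fold change -0.23 ± 0.05 (SE), adjusted p = 0.0646.

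The test of whether both effects differed (the interaction, over 12 libraries) called 0 members and 0.014% of all genes in limma. edgeR and DESeq2 called 0 members too, against 0.014% and 0.372% of all genes. Unadjusted, 2 of 31 members were under 0.05, a share no higher than the 6.95% of all genes. Heatr1 had the lowest value (log2 difference -0.54 ± 0.18 SE, unadjusted 0.00763 and adjusted p = 0.57, limma), followed by Nop14 at -0.42 ± 0.21 (SE), and Wdr43 was the other under 0.05, at -0.32 ± 0.14 (SE). The highest values were those of Pwp2 at 0.29 ± 0.17 and Lyar at 0.23 ± 0.16 (SE). The 4 calls with glutamate and the 0 without it are therefore not shown to differ. Both effects come from groups that also enter the glutamate comparisons.

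Glutamate on its own changed no member past the threshold. For Veh-Glut against Veh-Veh 0 members passed in limma, where 0.161% of all genes passed in either direction. There were 7 at an unadjusted p under 0.05, against 9.51% of all genes, and edgeR called 0 members and DESeq2 1, against 0.161% and 1.13% of all genes. The median was 0.0811 on the log2 scale, with 27 of 31 above 0, where 7136 of all 14266 genes were. All 9 small subunit factors were above 0, with a median of 0.266, and so were all 9 large subunit factors, with a median of 0.0837. Among other ribosome biogenesis genes, set out below, 25 of 44 small subunit factors were above 0 (median 0.0293). For large subunit factors it was 34 of 53 (median 0.0433). The groups did not overlap, with Veh-Glut higher, for 5 members (Pwp2, Heatr1, Wdr12, Rrs1 and Rrp1b), against 7.58% of all genes.

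Heatr1, a processome protein also tied to RNA polymerase I transcription, was the member with the highest value for glutamate alone. Its normalized counts were 1122, 923 and 1352 in Veh-Veh, 1508, 1834 and 1555 in Veh-Glut, 1201, 1188 and 1113 in TFBTBOA-Veh, and 1072, 1149.6 and 1278 in TFBTBOA-Glut. The Veh-Glut libraries lay above all others, and the log2 fold change against Veh-Veh was 0.54 ± 0.14 (SE, adjusted p = 0.218) in limma. This was the member that DESeq2 called. Utp20, a large processome protein, was next, with 952, 986 and 1134 in Veh-Veh, 1079, 1519 and 1238 in Veh-Glut, 880.0, 744 and 1108 in TFBTBOA-Veh, and 804, 855 and 1187 in TFBTBOA-Glut. Its groups overlapped (log2 fold change 0.31 ± 0.13 (SE), adjusted p = 0.48). Nop14, which joins the same complex, had 709.6, 948 and 799 in Veh-Veh, 1019, 1116 and 886 in Veh-Glut, 849, 920.4 and 778 in TFBTBOA-Veh, and 902, 612 and 870.0 in TFBTBOA-Glut, and overlapped likewise (log2 fold change 0.30 ± 0.13 (SE), adjusted p = 0.497). Lyar had the lowest value (log2 fold change -0.26 ± 0.10 (SE), adjusted p = 0.453), followed by Polr1a (log2 fold change -0.10 ± 0.11 (SE), adjusted p = 0.812).

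With the inhibitor present, glutamate (TFBTBOA-Glut against TFBTBOA-Veh) gave 0 calls among the members and 0% of all genes in limma. Of the members 1 was under an unadjusted 0.05, against 3.76% of all genes, and edgeR and DESeq2 called 0 members, against 0% and 0.00701% of all genes. The median log2 fold change was 0.000432, with 16 members above 0 and 15 below. Pwp2 had the highest value, 0.41 ± 0.14 (SE, adjusted p = 1), followed by Pes1 at 0.13 ± 0.08 (SE). Nop16 at -0.16 ± 0.11 and Rrp12 at -0.14 ± 0.16 (SE) had the lowest, and the value of Rrp12 was 0.00552 without TFBTBOA-Glut replicate 2.

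**Figure D4:**
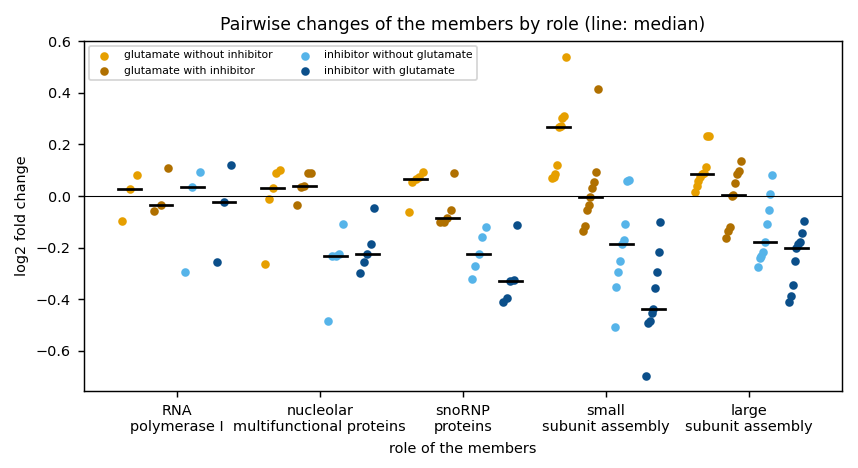
Log2 fold changes of the members in the 4 pairwise comparisons, by role, with a line at each median. For the small subunit factors the median is 0.266 for glutamate without the inhibitor and -0.438 for the inhibitor with glutamate, which share the Veh-Glut libraries.

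The members were set beside a wider list of 128 other ribosome biogenesis genes, of which 124 were tested. Averaged over glutamate, 18 of these 124 were lower with the inhibitor and 0 higher (limma), with a median log2 fold change of -0.154 and 114 below 0, where 3.4% of all genes were lower. They began with Noc2l, an assembly factor of the large subunit (-0.32 ± 0.05 (SE, adjusted p = 0.00119)), the histone-binding Grwd1 (-0.32 ± 0.07 (SE, adjusted p = 0.00783)), Rsl1d1 (-0.23 ± 0.05 (SE, adjusted p = 0.00959)) and Brix1, another large subunit factor (-0.25 ± 0.06 (SE, adjusted p = 0.0119)). Ubtf, the factor that sets up ribosomal DNA for RNA polymerase I, was also lower (-0.23 ± 0.05 (SE, adjusted p = 0.0141)). In each pairwise comparison and in the interaction 0 of the 124 passed in limma. At an unadjusted p under 0.05 there were 37 for the inhibitor with glutamate and 24 without it, against 18.3% and 11.4% of all genes. There were 8 for glutamate alone, 0 for glutamate with the inhibitor and 5 for the interaction, against 9.51%, 3.76% and 6.95% of all genes. For the averaged effect between 8 and 16 passed when 1 library was left out, with 8 also in the fit without a filter. DESeq2 called 31, where it called 5.27% of all genes lower.

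Of the 77 cytosolic ribosomal protein genes themselves 0 passed in any of the 6 comparisons in limma, with 1 at an unadjusted p under 0.05 for the inhibitor averaged over glutamate and a median there of 0.0346. TFBTBOA-Glut replicate 2 stood apart, with 505664 normalized counts summed over the list, where the other 11 libraries had 334067 to 410152. Without it the median was -0.0557. With glutamate present, the median of the inhibitor effect was 0.159, and -0.0232 without that library. Without glutamate, 76 of the 77 genes were below 0, the direction of most members, where 7204 of all 14266 genes were. The median there was -0.0843 and ran from -0.138 to -0.014 with 1 library left out. In 2 other comparisons the genes went against most members. For glutamate alone 72 of the 77 were below 0 (median -0.0846), and for the inhibitor with glutamate 72 were above 0.

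**Figure D5:**
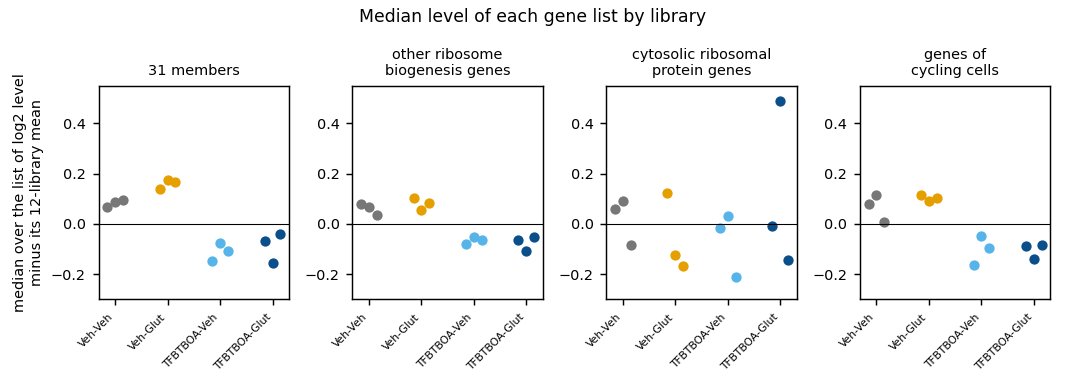
Median over each gene list of log2(normalized count + 1) minus the gene's 12-library mean, by library (points, 3 per group). For the 31 members the 6 inhibitor libraries lie between -0.156 and -0.0416 and the other 6 between 0.0681 and 0.174. The ribosomal protein genes show no such separation, and TFBTBOA-Glut replicate 2 is at 0.487.

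Markers of cycling cells moved with the members. Of 15 such genes 7 were lower with the inhibitor averaged over glutamate (limma) and all 15 were below 0, with a median log2 fold change of -0.171, where 3.4% of all genes were lower. With 1 library left out 3 to 7 were called, with 3 without Veh-Veh replicate 1 and 3 without TFBTBOA-Veh replicate 1. The smallest p-values were those of Rrm2, which makes deoxynucleotides (-0.28 ± 0.04 (SE, adjusted p = 0.00109)), the mitotic cyclin Ccnb1 (-0.30 ± 0.05 (SE, adjusted p = 0.00143)), the topoisomerase Top2a (-0.30 ± 0.06 (SE, adjusted p = 0.00381)) and the mitotic kinase Aurkb (-0.25 ± 0.06 (SE, adjusted p = 0.0185)). Summed over the 15 genes, the normalized count was 71261 to 74048 in Veh-Veh, 75153 to 76593 in Veh-Glut, 61565 to 65779 in TFBTBOA-Veh and 63342 to 64709 in TFBTBOA-Glut. Their part in the lower level of the members was not tested. Of the 18 cell type markers tested, 0 were lower and 2 were higher (limma), where 588 of all 14266 genes were higher. They were Vim (0.25 ± 0.07 (SE, adjusted p = 0.0388)) and Prox1, a transcription factor of granule neurons and their precursors (0.43 ± 0.12 (SE, adjusted p = 0.0424)). Each was called in 4 of the 12 fits with 1 library left out.

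Within the MYC network, 8 of 9 genes were tested. For the inhibitor averaged over glutamate 1 was called lower and 1 higher (limma), where 3.4% of all genes were lower and 588 of 14266 were higher. The median log2 fold change was -0.0318, with 3 above 0 and 5 below. Mxd3 (-0.19 ± 0.09 (SE), adjusted p = 0.208) and Mxd1 (0.26 ± 0.16 (SE), adjusted p = 0.384) lay on opposite sides of 0 and were not called. Myc, whose protein drives transcription of many ribosome biogenesis genes when bound with MAX, had normalized counts of 3310.1, 3587 and 2983 in Veh-Veh, 3476, 3136 and 2978 in Veh-Glut, 2789.6, 3082 and 2474 in TFBTBOA-Veh, and 2882, 2440.3 and 2782 in TFBTBOA-Glut. The inhibitor libraries were lower on average, with overlap, and Myc passed narrowly (log2 fold change -0.24 ± 0.07 (SE), adjusted p = 0.0438, limma). The call of Myc held in 4 of the 12 fits with 1 library left out (adjusted p from 0.0283 to 0.104). Mxd4, whose protein also pairs with MAX and represses such genes, had 1188, 1039 and 990.5 in Veh-Veh, 831, 888 and 909 in Veh-Glut, 1222, 1048 and 1322 in TFBTBOA-Veh, and 1351, 1459 and 1222 in TFBTBOA-Glut. It was higher with the inhibitor averaged over glutamate (log2 fold change 0.39 ± 0.08 (SE), adjusted p = 0.00577). With glutamate present the log2 fold change was 0.61 ± 0.11 (SE, adjusted p = 0.0149), and the groups did not overlap. Without glutamate it was 0.16 ± 0.11 (SE, adjusted p = 0.655), and the groups overlapped. The interaction did not pass for Mxd4 (0.46 ± 0.15 (SE), adjusted p = 0.588), nor did glutamate alone (-0.29 ± 0.10 (SE), adjusted p = 0.435). With 1 library left out, Mxd4 kept the averaged call in all 12 fits and the call with glutamate in 2 of 6. RNA levels do not give the activity of these proteins, and their part in the change of the members was not tested.

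Since MYC with MAX binds the E-box CACGTG, this motif was searched in the RefSeq promoter windows (GRCm38.p6, 250 bases before to 50 after a transcription start), which 26 of the 31 members had. CACGTG reads the same on both strands. It was in the windows of 6 members, or 23.1%, against 18.3% of 109 other ribosome biogenesis genes, 10.7% of 56 ribosomal protein genes and 8.09% of 27025 genes with windows. The 6 sites are shown with their surroundings as examples of the motif in these genes, 30 bases each on the strand of the gene, with the E-box in capitals and the position of its first base counted from the start as base 1. Of these 6 genes, Wdr43, Mybbp1a, Pes1 and Tsr1 were lower with the inhibitor averaged over glutamate and Nop2 and Utp20 were not called. Among all 31 members 18 were called lower, and a link between the motif and the calls was not tested.
Nop2, position -60, chr6:125131811-125131840, plus strand: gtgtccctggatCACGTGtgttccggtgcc
Pes1, position 3, chr11:3963965-3963994, plus strand: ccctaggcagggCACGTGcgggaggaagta
Wdr43, position 18, chr17:71616220-71616249, plus strand: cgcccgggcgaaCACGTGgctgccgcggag
Tsr1, position 25, chr11:74898092-74898121, plus strand: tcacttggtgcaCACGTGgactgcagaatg
Utp20, position 38, chr10:88826765-88826794, minus strand: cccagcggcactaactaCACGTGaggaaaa
Mybbp1a, position 41, chr11:72441347-72441376, plus strand: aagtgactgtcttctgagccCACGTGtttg

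In 5 of these 6 windows the E-box began after the start, in transcribed sequence, and only that of Nop2 lay upstream. Further motifs were searched on both strands, and matches may overlap. The variant E-box CACGCG was in 30.8% of the members' windows, 32.1% of those of the other ribosome biogenesis genes, 17.9% of those of the ribosomal protein genes and 10.5% of those of all genes. In the same order, the ETS motif CCGGAAG was in 26.9%, 46.8%, 41.1% and 9.93%, the sequence TCTCGCGA in 15.4%, 1.83%, 19.6% and 1.13%, and AAGATGG in 3.85%, 6.42%, 17.9% and 7.28%. Nop58, the member of smallest p, held TCTCGCGA at position -152 and no E-box in either form. A match is a description of the sequence and does not show that a factor was bound there.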

How the data were processed

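Total RNA of 12 wells of cultured mouse DG NSCs was made into SMART-Seq HT libraries and sequenced on an Illumina HiSeq instrument. Per the study's methods, reads were trimmed with AdapterRemoval, HISAT2 took out ribosomal, mitochondrial and PhiX reads, and the rest was aligned to GRCm38p4 and counted per GENCODE M14 gene with featureCounts of the Subread package in stranded mode. The submitters' processing notes name CASAVA 1.8.2 and HISAT2 2.0.6, and list the human build GRCh38. The table deposited by the authors holds normalized counts, a signal in which each library's reads are divided by a DESeq size factor. Dividing each value by that of 1 read gave whole reads, within 0.05, for 100% of values in all 12 libraries. For TFBTBOA-Veh replicates 2 and 3, where 1 read is worth about 1, an automatic check of this could not tell them from unscaled reads. Of 50600 entries 183 share a symbol with another and were not used in gene lists.

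Groups came from the sample labels, which name no batch. log2(normalized count + 1) was fitted for 14266 genes (mean of 10 or more) with limma 3.58.1 (trended variance, two-sided, R 4.3.3). The 4 pairwise comparisons used their own 6 libraries, and the interaction and the averaged inhibitor effect used all 12. P-values were adjusted over all genes (Benjamini-Hochberg, threshold 0.05), and fold changes are on the log2(value + 1) scale. Alternatives were pseudocounts of 0.5 and 5, no filter, a minimum mean of 50, TMM scaling, a block for the replicate number, all 12 libraries in a single fit, edgeR 4.0.16 (quasi-likelihood) and DESeq2 1.42.0 on recovered reads, and each library left out in turn. The fits were tested on simulated data.

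The members and the gene lists were chosen with earlier results of these data known. Members named with the value of every library were those past the threshold in any comparison (at most the 8 of smallest p) and the 2 highest and 2 lowest of each comparison, 20 in all. The other 11 are given by range, fold change or count. Of the other lists at most 4 genes of smallest p per comparison were named; Ubtf, Vim, Prox1 and the level of Sox2, Gfap and other markers were added after their values were seen. Gene positions and exon lengths are from GENCODE M21 (GRCm38), and promoter sequences are from RefSeq (GRCm38.p6). Promoter windows of Npm1, Fbl, Rrp12, Bop1 and Rrs1 were not analysed here. A cell type marker on the lists is not reported here.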

Additional observations from a re-analysis of the deposited data

How the results depend on the processing

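For the inhibitor averaged over glutamate, 11 of the 18 called members (Nop58, Rrs1, Ncl, Dkc1, Nolc1, Wdr43, Lyar, Wdr12, Nop56, Utp15 and Pwp2) kept their call in all 20 alternatives, and none of the 18 changed sign. Bop1, Gnl3, Mybbp1a, Rrp9 and Tsr1 lost it without a filter, where 28902 genes were tested and 13 members passed, and leaving out 1 library gave 11 to 18 members. Of the 12 fits with 1 library left out, Rrp12 and Pes1 lost their call in 3, Rrp9 in 6, Mybbp1a in 7, Tsr1 in 8, Bop1 in 9 and Gnl3 in 11.

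Members called lower for the inhibitor with glutamate numbered 4, against 0 without a filter, 9 with all 12 libraries in a single fit, 11 in DESeq2 and 0 to 6 with 1 library left out; Heatr1 also missed the threshold with a pseudocount of 0.5, TMM scaling and edgeR. Without glutamate they numbered 0, against 1 with a pseudocount of 5, 1 with a minimum mean of 50, 2 in the single fit, 5 in DESeq2 and 0 to 1 with 1 library left out. For glutamate alone DESeq2 called 1 member higher. Leaving out 1 library moved the log2 fold change of Polr1b across 0, within -0.0637 to 0.177 for the inhibitor without glutamate, -0.1 to 0.0392 with it and -0.0426 to 0.0777 on average, and that of Rrp12 for glutamate with the inhibitor within -0.317 to 0.00552. The causes were not tested.

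Over all genes, glutamate without the inhibitor gave 23 calls, against 39 with a minimum mean of 50, 36 in the single fit, 161 in DESeq2 and 0 to 139 with 1 library left out. Glutamate with the inhibitor gave 0, against 9 without a filter and 1 in DESeq2. The inhibitor without glutamate gave 147, against 23 without a filter, 347 in DESeq2 and 31 to 86 with 1 library left out. The inhibitor with glutamate gave 311, against 43 without a filter, 727 in the single fit, 860 in DESeq2 and 62 to 441 with 1 library left out. The interaction gave 2, against 0 without a filter, 53 in DESeq2 and 0 to 2 with 1 library left out.

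Whether the replicate numbers pair the wells is not settled by how the libraries' deviations from their group means correlate. The submitters' library numbers run through all groups within each replicate number, and what that order stands for is not stated. For same-numbered libraries the correlations were -0.043 to 0.084 over 18 pairs, and for other numbers -0.11 to 0.0849. In 10 of the 18 pairs the first library correlated best with its own number. The main fits had no term for the replicate number. With the replicate number as a block, 20 members were called for the averaged inhibitor effect, 6 with glutamate and 3 without it, and 0 for the glutamate comparisons and the interaction. Over all genes the block gave 4 calls for glutamate without the inhibitor, 325 for the inhibitor without glutamate and 14 for the interaction. It gave 459 for the inhibitor with glutamate and 1293 for the averaged inhibitor effect, against 311 and 1073 in the main fits.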
